A study of Mus musculus with 3 samples.

Results

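The genes described here are the matrix metalloproteinases (MMPs) and their tissue inhibitors (TIMPs): the proteases Mmp2, Mmp3, Mmp8, Mmp9, Mmp12, Mmp13, Mmp14 and Mmp19 and the inhibitors Timp1 and Timp2. They were taken by gene symbol from a list, and all 10 symbols were present among the 31053 mouse genes counted in each of 3 single-cell libraries. MMPs are zinc-dependent enzymes that cut collagens, elastin and other proteins of the extracellular matrix. Most are made as inactive precursors and gain activity when a pro-domain is removed, and TIMPs bind the active enzymes and block them. In healing skin they are known for clearing damaged matrix, for letting cells move through it and for remodelling new collagen, so the balance of protease and inhibitor in each cell type matters. The counts are of RNA, and neither protein nor enzyme activity was measured.

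The study asked how host cells respond to implanted human skin and what vitamin D3 does to cultured macrophages. The hSTSG library holds cells from human split-thickness skin grafts left for 14 days under the skin of C57BL6/J mice of wild type, with the cells of 5 mice pooled after digestion with collagenase IV. The Co-Mac and VD-Mac libraries hold bone marrow cells of C57/BL6 mice that were grown for 7 days with GM-CSF, a growth factor for myeloid cells. VD-Mac cells then had 24 hours with 1 μM of 1,25-dihydroxycholecalciferol, which is vitamin D3 in its active form. Co-Mac cells are the untreated control. Each group is 1 library with no replicates, so differences between groups carry no test.

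The deposited barcodes held 136905324 gene UMIs (unique molecular identifiers, each standing for 1 captured RNA molecule) in Co-Mac, 124731240 in VD-Mac and 24472168 in hSTSG. A barcode was kept as a cell if it had 300 genes or more, stayed below 100000 UMIs and had under 10% of its UMIs from mitochondrial genes. This left 7257 cells with a median of 15804 UMIs in Co-Mac, 8825 cells with a median of 12089 in VD-Mac and 2144 cells with a median of 6637.5 in hSTSG. The kept cells shared few barcodes between libraries, 15 between Co-Mac and VD-Mac, 3 between Co-Mac and hSTSG and 6 between VD-Mac and hSTSG. Levels are in CPM, the usual unit that scales the UMIs of a gene to a fixed total of gene UMIs, after summing the cells of a group. Ranges in parentheses are exact 95% intervals (Poisson for levels, Clopper-Pearson for shares, conditional binomial for ratios), and they cover counting error only.

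The kept cells of the graft formed 12 clusters, and marker genes joined them into 10 classes. The members and the other listed genes were left out of the genes used to cluster. The macrophage-like class had 625 cells with a median of 12788 UMIs and the granulocyte-like class, which carried neutrophil markers, had 474 cells with a median of 2261.5. There were 359 monocyte-like, 301 T cell-like, 142 fibroblast-like, 40 neutrophil precursor-like, 25 endothelial-like and 13 mast cell or basophil-like cells. The leading genes of the neutrophil precursor-like cluster held 3 markers of precursors and 3 of granulocytes. An unnamed cluster of 127 cells had leading genes of antibody-producing and dendritic cells (Igkc, Ighm, Ccr7, Flt3), and another unnamed one of 38 cells had a median of only 683.5 UMIs.

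In the graft, the proteases divided by cell class. Macrophage-like cells held most of the UMIs of Mmp12, Mmp13, Mmp19 and Timp2 and the largest part of those of Mmp14. Fibroblast-like cells held nearly all UMIs of Mmp2 and Mmp3 and most of those of Timp1. Cells of the neutrophil line, precursor-like and granulocyte-like, had the highest levels of Mmp8 and Mmp9. By the class with the most UMIs, macrophage-like cells led for 5 of the 10 members and 4 of the 8 proteases, fibroblast-like cells for 3 members, and neutrophil precursor-like and granulocyte-like cells for 1 each. These counts follow class size as well, since macrophage-like cells held 43.2% of all graft UMIs and fibroblast-like cells 16.1%.

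The collagenases cleave intact fibrillar collagen, and in the mouse Mmp8 is known as the neutrophil collagenase and Mmp13 as the main interstitial collagenase. Mmp8 stood at 2154 CPM (2001 to 2314) in neutrophil precursor-like cells, which held 52.6% of its graft UMIs (50.0 to 55.3) although they were only 40 cells. It reached 149.8 CPM in granulocyte-like cells, 60.3 in monocyte-like cells and 28.8 in macrophage-like cells. The precursor-like level was thus 14.4 times that of the granulocyte-like cells, the next class, while fibroblast-like cells, at 1.37 CPM, had almost none. Mmp13 had the opposite home. It stood at 1233 CPM (1211 to 1255) in macrophage-like cells, which held 91.6% of its UMIs (91.1 to 92.0), against 159 CPM in fibroblast-like and 59.7 in monocyte-like cells. The T cell-like level of 142 CPM came mostly from 1 cell with 245 of the 269 UMIs, and the fibroblast-like UMIs were also concentrated, with 206 of 581 in 1 cell. With the coarser clustering at resolution 0.3 the share of Mmp13 in macrophage-like cells was 47.4%, and these cells still led.

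The gelatinases cut denatured collagen and the collagen of basement membranes. Mmp2 was a fibroblast gene here, with 1217 CPM (1182 to 1254) in fibroblast-like cells and 4.60 in macrophage-like cells. Fibroblast-like cells held 98.4% of its UMIs (98.0 to 98.7). Mmp9 was spread more widely, with 1411 CPM in neutrophil precursor-like, 609 in granulocyte-like, 60.2 in macrophage-like and 41.6 in fibroblast-like cells. Granulocyte-like cells held the largest part of its UMIs at 34.3% (32.3 to 36.5), macrophage-like cells 29.1% and precursor-like cells 24.0%. In macrophage-like cells 1 cell carried 274 of the 588 Mmp9 UMIs, so this level and share describe few cells. Without that cell the macrophage-like share falls below the precursor-like one, and the granulocyte-like share is 39.7%. Monocyte-like cells, at 1.55 CPM, had little.

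Mmp3, stromelysin 1, cuts many matrix proteins and activates other pro-MMPs. Its level was 3544 CPM (3483 to 3605) in fibroblast-like cells, with 98.7% of its UMIs (98.5 to 98.9), and 10.0 CPM in macrophage-like cells. The fibroblast-like cells were uneven, since 1 cell held 2392 of their 12946 UMIs and 8 of 142 cells held 50% of them. Mmp2 was shared more evenly, with 50% of its fibroblast-like UMIs in 32 cells.

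Mmp12, macrophage elastase, degrades elastin and is made chiefly by macrophages. It stood at 3846 CPM (3807 to 3885) in macrophage-like cells, which held 92.5% of its graft UMIs (92.3 to 92.8), at 296 CPM in monocyte-like and 19.4 in fibroblast-like cells. The unnamed cluster of 127 cells showed 855 CPM, but 1592 of its 1666 UMIs lay in 1 cell. In the same way 204 of the 263 UMIs of T cell-like cells lay in 1 cell. Within the macrophage-like class, 36 of 625 cells held 50% of the Mmp12 UMIs.

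Mmp14 is the membrane-bound MMP that activates pro-Mmp2 at the cell surface, and Mmp19 is a secreted protease of basement membrane and other matrix proteins. Mmp14 was highest in fibroblast-like cells at 780.4 CPM (752 to 810), followed by 326 in macrophage-like, 273 in endothelial-like and 176 in monocyte-like cells. Because macrophage-like cells were more numerous they held 46.1% of its UMIs (44.9 to 47.3), near their 43.2% of all UMIs, and fibroblast-like cells 41.2%. The order of these shares turned, with fibroblast-like cells leading, at resolution 0.3 and when the members and listed genes were kept among the clustering genes. Mmp19 was the protease with the highest level in monocyte-like cells, 387 CPM (366 to 409), beside 313 in macrophage-like and 118 in fibroblast-like cells. Macrophage-like cells held 60.8% of its UMIs (59.4 to 62.1) and monocyte-like cells 24.7%. Granulocyte-like cells had 19.3 CPM of Mmp19 and 11.4 CPM of Mmp14, so neither was a gene of neutrophils here.

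The inhibitors were split as well. Timp1, a secreted inhibitor of many MMPs, stood at 1398 CPM (1360 to 1437) in fibroblast-like cells, 207 in macrophage-like and 175 in monocyte-like cells, and fibroblast-like cells held 65.1% of its UMIs (64.1 to 66.2). Timp2, which inhibits MMPs and also takes part in pro-Mmp2 activation by Mmp14, stood at 929.5 CPM in fibroblast-like and 898 in macrophage-like cells. The log2 ratio between these 2 classes was 0.05 (-0.01 to 0.11), so no difference was detectable at this depth. Macrophage-like cells held 66.8% of Timp2 UMIs (66.0 to 67.7) and fibroblast-like cells 25.9%. Timp2 also reached 377 CPM in neutrophil precursor-like and 173 in granulocyte-like cells, where Timp1 was at 2.90 and 6.13 CPM.

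**Figure D1:**
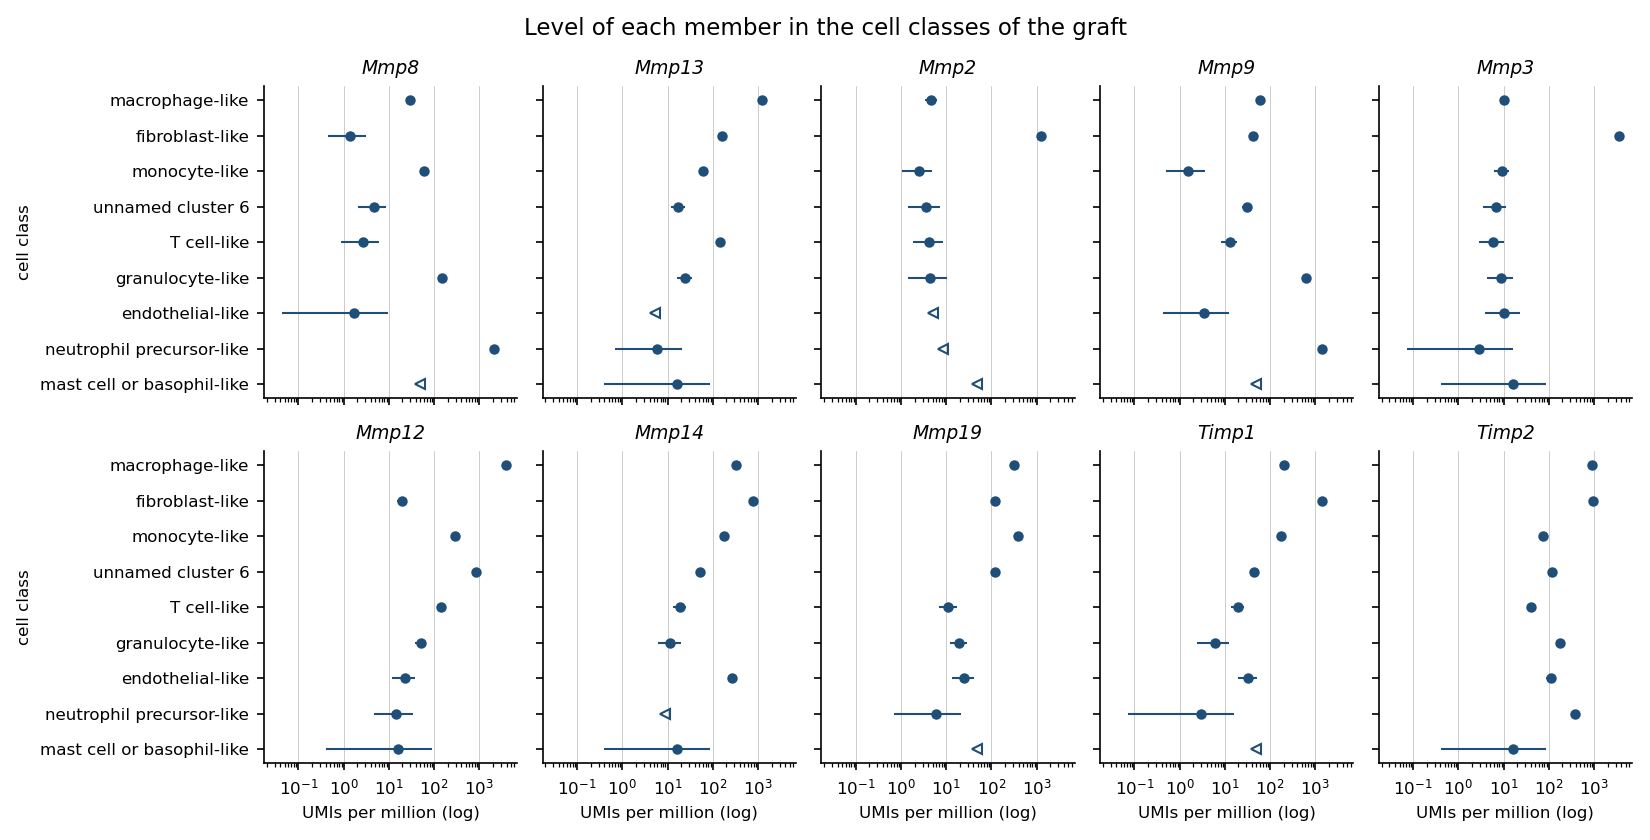
Level of each of the 10 members (CPM, log axis) in the graft classes, without the unnamed cluster of 38 cells; bars are exact Poisson 95% intervals and open triangles mark classes with 0 UMIs, drawn at 3 counts. Mmp2 and Mmp3 stand out in fibroblast-like cells, Mmp12 and Mmp13 in macrophage-like cells, and Mmp8 and Mmp9 in cells of the neutrophil line.

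Some members were found in a large share of the cells of their class. The shares were compared with T cells, which should lack most MMPs, after each cell was thinned at random to 2000 UMIs. Thinning left out 44 of 625 macrophage-like, 6 of 301 T cell-like and 1 of 142 fibroblast-like cells, and before it the median depths of these classes were 12788, 5552 and 25375 UMIs. After thinning, Mmp12 was detected in 43.2% of the macrophage-like class (39.1 to 47.3) and 5.42% of the T cell-like class (3.13 to 8.66), against 62.1% and 17.9% unthinned. For Mmp13 the thinned shares were 27.5% and 3.73%, against 43.5% and 6.98% unthinned. For Mmp14 they were 47.7% and 0.678%, against 83.8% and 3.32% unthinned. These 3 proteases were thus present in more macrophage-like cells than the T cell-like share. In fibroblast-like cells Mmp2 was found in 78.0% of thinned and 98.6% of unthinned cells, and in T cell-like cells in 1.02% and 2.66%. Timp2 was in 64.9% of thinned macrophage-like, 80.1% of thinned fibroblast-like and 8.14% of thinned T cell-like cells, and unthinned in 85.9%, 97.9% and 17.6%. For Mmp3 the thinned shares were 66.7% of fibroblast-like and 1.89% of macrophage-like cells, the latter near the T cell-like 0.678%, and 86.6%, 13.9% and 3.65% unthinned.

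Deposited barcodes with under 300 genes, 306 of them in the graft library, served as a rough gauge of RNA from other cells. That they stand for such RNA was not tested. Mmp12 stood there at 56.7 CPM, Mmp3 at 38.3, Mmp13 at 29.8, Timp1 at 14.2, Timp2 at 11.3 and the other members at 8.51 CPM or less. The fibroblast-like level of Mmp12 and the macrophage-like levels of Mmp2 and Mmp3 lie below these values, so they are not read as expression.

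Counting the 8 proteases per cell, 547 of 2144 graft cells (25.5%) had no UMI of any, 507 had UMIs of 1, 412 of 2, 295 of 3, 246 of 4 and 94 of 5. Another 34 cells had UMIs of 6, 8 cells of 7 and 1 cell of all 8. These counts were not thinned and follow depth as well as expression.

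The macrophage-like and monocyte-like cells of the graft and the unnamed cluster of 127 cells, 1111 cells in all, were clustered again to see where among them each protease lay. Trem2 marks lipid-associated macrophages and Cd163 marks resident, scavenging ones. Mmp12 was higher in the class of Trem2 macrophage-like cells as a whole, Mmp13 lay in both kinds, and Timp2 was somewhat higher in the Cd163 macrophage-like cells. The Trem2 class had 359 cells with a median of 15011 UMIs, the Cd163 class 190 cells with 11849, from 2 clusters of 127 and 63 cells, and the Plac8 monocyte-like class 295 cells with 9456. Outside these classes, an unnamed cluster of 118 cells, with a median of only 1567 UMIs, had 2825 CPM of Mmp12 and 1866 of Mmp13. Another unnamed one of 38 cells, led by Jchain, Iglc2 and Igkc, had 1959 CPM of Mmp12 and 26.8 of Mmp13.

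Mmp12 stood at 5391 CPM in Trem2 macrophage-like cells, 505 in Cd163 macrophage-like cells and 148 in Plac8 monocyte-like cells. It was thus 10.7-fold higher in the Trem2 than in the Cd163 class, a log2 ratio of 3.42 (3.34 to 3.49), and 4.27 with the finer clustering at resolution 0.8, where the Trem2 class is another, smaller set of cells. Mmp13 went the other way, with 961 CPM in Trem2, 1908 in Cd163 and 70.0 in Plac8 cells. Its log2 ratio of -0.99 (-1.04 to -0.94) is just short of 2-fold. The Cd163 class pools 2 unlike clusters, with 2720.0 CPM of Mmp13 in 127 cells and 17.2 CPM in 63 cells. Mmp14 was at 330 CPM (329.6) in Trem2 and 307 in Cd163 cells (log2 ratio 0.10, -0.01 to 0.22), and the latter pools 405 CPM in the 127 cells and 78.4 in the 63.

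Mmp19 was highest in Plac8 monocyte-like cells at 394 CPM, close to the 368 of Trem2 cells and above the 177 of Cd163 cells. Its log2 ratio of Trem2 over Cd163 cells was 1.06 (0.92 to 1.20). The Cd163 level of Mmp19 pools 214 CPM in the 127 cells and 90.7 in the 63. Against the 127 cells alone the difference is under 2-fold. The inhibitors were lower in the Trem2 than in the Cd163 class, Timp2 at 784 against 1246 CPM (log2 -0.67) and Timp1 at 190.1 against 259 CPM (log2 -0.45), and neither ratio reached 2-fold. Timp1 pools 345 CPM in the 127 Cd163 cells and 58.8 in the 63, so its direction turns in the smaller cluster. At resolution 0.8, where the Trem2 class keeps only 69 cells, the log2 ratio of Timp2 was -1.21 and that of Timp1 -0.84. Plac8 cells had 88.8 CPM of Timp2 and 144 of Timp1.

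Mmp8 stood at 37.2 CPM in Trem2, 13.6 in Cd163 and 63.2 in Plac8 cells, and its log2 ratio of Trem2 over Cd163 cells, 1.45, became 0.04 at resolution 0.8. Mmp9 was at 63.4 and 61.1 CPM in Trem2 and Cd163 cells, but 1 cell held 274 of the 421 UMIs of the Trem2 class. Its log2 ratio of 0.05 became -1.07 without the top cell of each class and 1.27 at resolution 0.8, so no order can be given. Plac8 cells had 1.71 CPM of Mmp9. Mmp2 and Mmp3 were under 16 CPM in these 3 classes.

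**Figure D2:**
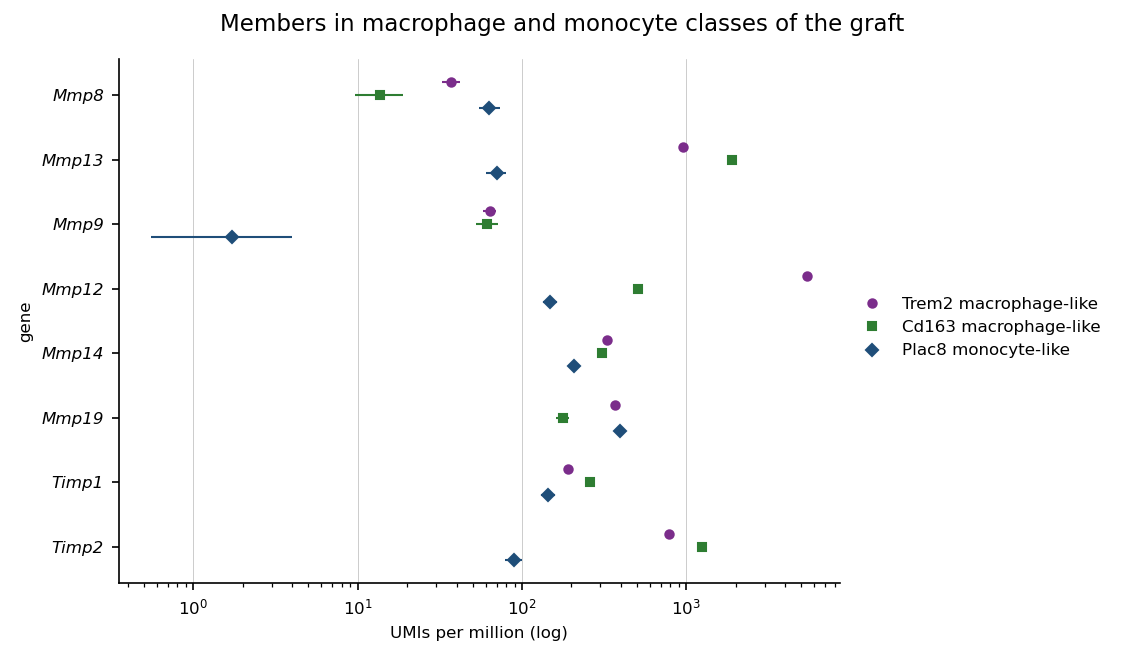
Level (CPM, log axis) of 8 members in 3 classes of the macrophages and monocytes of the graft, with exact Poisson 95% intervals. Mmp12 is far higher in Trem2 macrophage-like cells (5391) than in Cd163 macrophage-like cells (505), while Mmp13 is lower (961 against 1908).

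At resolution 0.8 the 1111 cells split into smaller clusters, and the members differed among them. The clusters named next were chosen after their values were seen. A cluster of 69 cells led by Lpl, Ctsk and Spp1 had 778 CPM of Trem2, 9746 of Mmp12 and 1036 of Mmp13. An unnamed cluster of 132 cells led by the inflammatory genes Nos2, Il1a and Cxcl3 had 310 CPM of Trem2 (309.7), 8957 of Mmp12 and 2470.3 of Mmp13. An unnamed cluster of 157 cells led by Syngr1, Gdf15 and Pf4, with Apoe and complement C1q genes, had 678 CPM of Trem2, 1182 of Mmp12, 225 of Mmp13 and 1167 of Timp2. The Cd163 cells stayed in 2 clusters, as at resolution 0.5. In 123 cells with Cd163, Ch25h and Ccl8 in the lead, Mmp13 stood at 2664 CPM, and in 63 cells led by C6 and Lyve1 at 17.2, while Timp2 stood at 1291 and 1182 CPM. High Mmp13 was therefore not a trait of Cd163 cells as such, and Timp2 was alike in both groups of them.

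Per-cell co-expression was read as the share of thinned cells with a UMI of gene B among cells with and without a UMI of gene A, for 13 pairs in the class where they are at home. Mmp12 and Mmp13 went together in the same macrophage-like cells. Mmp13 and Mmp14, Mmp12 and Mmp19, and in granulocyte-like cells Mmp8 and Mmp9 did so as well. In these 4 of 13 pairs the share was higher among cells with the first gene and the intervals were apart. No share over other gene pairs of the same classes was computed, so the count is not read as a trait of the members. No pair of the 13 was lower with intervals apart, and without thinning 7 pairs were higher.

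Mmp13 was found in 45.8% of Mmp12-positive macrophage-like cells (39.5 to 52.2) and in 13.6% of Mmp12-negative ones (10.1 to 17.8). Unthinned these shares were 54.1% and 26.2%, and the Pearson correlation of log-normalized levels over all 625 cells of the class, as a description, was 0.53. The intervals were also apart inside each subclass. Within Trem2 cells the shares were 43.4% and 9.93%, within Cd163 cells 60.0% and 18.0%, and within Plac8 monocyte-like cells 20.0% and 3.15%. In T cell-like cells, where both should be background, they were 25.0% and 2.51%, with intervals of 7.27 to 52.4 and 1.01 to 5.10 that are also apart. The pair was thus found together in a class taken as background too, and how much RNA from other cells adds to it in macrophage-like cells was not tested.

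Mmp14 was found in 60.0% of Mmp13-positive macrophage-like cells (52.0 to 67.7) and 43.0% of Mmp13-negative ones (38.2 to 47.9), and unthinned in 92.3% and 77.3%. Mmp19 was found in 40.2% of Mmp12-positive cells (34.1 to 46.6) and 28.2% of negative ones (23.4 to 33.4), and unthinned in 75.8% and 54.9%. Mmp14 with Mmp12 differed less, 51.4% against 44.8%, with overlapping intervals. Within the subclasses these pairs were less clear. For Mmp13 and Mmp14 the intervals were apart in Cd163 cells (64.4% against 37.0%) and overlapped in Trem2 cells (56.7% against 46.8%) and Plac8 cells (37.5% against 28.1%). For Mmp12 and Mmp19 they overlapped in Trem2 (40.0% against 33.1%), Cd163 (33.3% against 23.3%) and Plac8 cells (47.5% against 38.6%). The Cd163 class pools 2 clusters of 127 and 63 cells that differ in both Mmp13 and Mmp14. Unthinned, Mmp13 was in 46.5% and 17.5% of their cells and Mmp14 in 93.7% and 41.3%. Whether this pair goes together inside either cluster was not tested.

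Trem2 itself was in 52.2% of Mmp12-positive (45.8 to 58.5) and 42.4% of Mmp12-negative macrophage-like cells (37.0 to 48.0), and in 40.0% of Mmp13-positive and 49.2% of Mmp13-negative ones. Inside the Trem2 class the first pair of shares was 58.5% and 56.3%. Timp2 was in 62.5% of Mmp14-positive and 67.1% of Mmp14-negative macrophage-like cells, and Timp1 in 25.0% of Mmp9-positive and 26.0% of Mmp9-negative ones. The intervals of these 4 pairs overlapped after thinning, which does not show that there is no link. Unthinned, the shares were 81.2% and 67.1% for Trem2 by Mmp12, 77.2% and 74.8% for Trem2 by Mmp13, 88.7% and 71.3% for Timp2 by Mmp14, and 73.3% and 58.4% for Timp1 by Mmp9.

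In granulocyte-like cells, of which 157 of 474 had too few UMIs to be thinned, Mmp9 was found in 64.7% of Mmp8-positive (50.1 to 77.6) and 43.2% of Mmp8-negative cells (37.2 to 49.4). Unthinned the shares were 66.7% and 47.9%. In fibroblast-like cells Timp2 was found in 83.6% of Mmp2-positive and 67.7% of Mmp2-negative cells, with a correlation of 0.57. The other fibroblast pairs also leaned upward, Mmp3 with Mmp2 (70.0% against 54.8%), Mmp14 with Mmp2 (72.7% against 61.3%) and Timp1 with Mmp3 (62.8% against 51.1%). With 141 cells the intervals of these 4 pairs overlapped. The gap of Mmp3 with Mmp2, 15.2 points, became 49.5 when cells were thinned to 4000 UMIs.

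**Figure D3:**
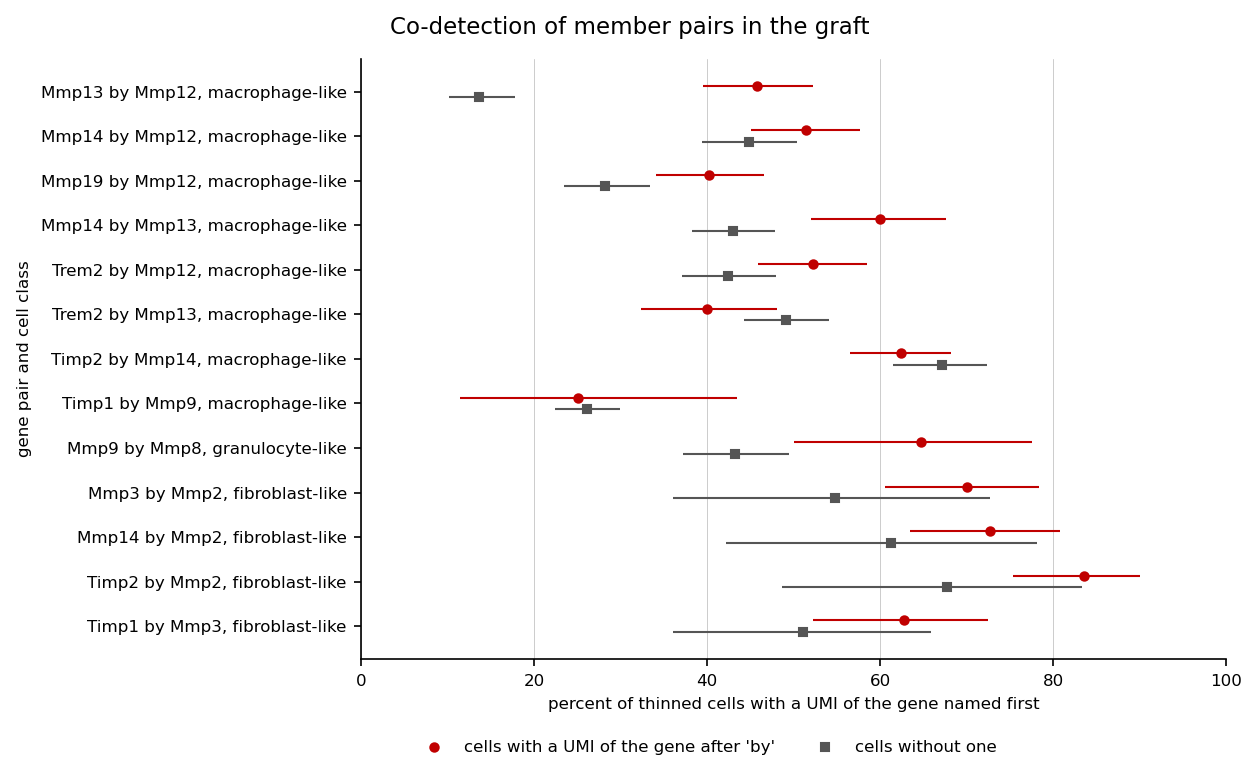
Share of thinned cells (percent, with exact Clopper-Pearson 95% intervals) that have a UMI of the first-named gene, among cells with (circles) and without (squares) a UMI of the gene after "by", for 13 pairs in the graft class named. The widest gap is that of Mmp13 by Mmp12 in macrophage-like cells (45.8% against 13.6%).

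The 2 cultures differ by the addition of vitamin D3, with 1 library each. Of the members with at least 10 CPM in 1 culture, Mmp12 differed most and was lower in VD-Mac, Mmp19 and Timp2 were lower too, and Mmp9 was higher. Of 10 members 7 had at least 10 CPM in the higher culture, the minimum for a call. Of these, 3 were lower by 2-fold or more in VD-Mac, against 4.63% of all 7732 genes with that minimum, and 1 was higher, against 2.16%. Their median log2 ratio of VD-Mac over Co-Mac was -0.91, and that of all 7732 genes -0.10.

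Mmp12 was at 1864 CPM (1857 to 1871) in Co-Mac and 104.6 CPM (103 to 106) in VD-Mac, beside 1794 CPM in the graft. The untreated culture and the graft thus had it near the top, rank 85 and rank 80 among all genes by UMIs, and the treated culture at rank 1160. The ratio was 17.8-fold lower in VD-Mac, a log2 of -4.16 (-4.18 to -4.13). It was -3.43 when the class levels of VD-Mac were weighted with the class shares of Co-Mac. In that weighting cluster 11, a class of its own, had only 3 VD-Mac cells, at 1641 CPM. A UMI of Mmp12 was found in 56.3% of Co-Mac cells and 11.2% of VD-Mac cells, unthinned and at median depths of 15804 and 12089 UMIs. Barcodes with under 300 genes held 221 CPM of Mmp12 in Co-Mac and 22.5 in VD-Mac. These shares are therefore not read as shares of expressing cells.

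Mmp19 was at 12.5 CPM in Co-Mac, 2.98 in VD-Mac and 223 in the graft, 4.19-fold lower in VD-Mac (log2 -2.07, -2.24 to -1.90). Timp2 was at 17.2, 6.49 and 580.0 CPM, 2.65-fold lower in VD-Mac (log2 -1.40, -1.52 to -1.28). Mmp9 was at 7.63, 19.4 and 89.4 CPM, 2.54-fold higher in VD-Mac (log2 1.34, 1.24 to 1.45). The graft was above both cultures for each of these 3 genes. The call for Timp2 was lost when cells were kept under 5% mitochondrial UMIs, which leaves 3125 Co-Mac and 3619 VD-Mac cells and a log2 of -0.27, and when the CPM of single cells was averaged (-0.81). That of Mmp9 was 2.32 under the 5% limit.

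For the other members with 10 CPM the differences stayed under 2-fold. Mmp8 was at 183 CPM in Co-Mac, 119 in VD-Mac and 62.3 in the graft (log2 -0.62), and it is the member whose graft level was below both cultures. Mmp14 was at 47.6, 25.3 and 305 CPM (log2 -0.91, -0.98 to -0.85), and Timp1 at 13.4, 10.9 and 346 CPM (log2 -0.30). With the 5% mitochondrial limit Mmp14 passed 2-fold at -1.25 and Mmp8 turned to 0.18, and Timp1 turned to 0.30 when the cells with the highest doublet scores were removed. In Co-Mac 1 cell held 542 of the 1783 Timp1 UMIs, and without the top cell of each culture its log2 ratio was 0.05.

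The fibroblast proteases and Mmp13 were scarce in culture. Mmp2 was at 2.64 CPM in Co-Mac and 0.945 in VD-Mac, against 199.6 in the graft. Mmp13 was at 2.68 and 2.03 CPM, against 581 in the graft, and its 236 UMIs in VD-Mac came from 26 cells. The log2 ratio of Mmp13, -0.40, turned to 1.52 with the 5% mitochondrial limit and to 3.83 with weighted classes, where a cluster of 3 VD-Mac cells at 706 CPM decides it. Barcodes with under 300 genes held 34.8 CPM of Mmp13 in VD-Mac (20.3 to 55.8), above its level in either culture. Nothing is therefore drawn from its ratios between the cultures. Mmp3 had 32 UMIs in Co-Mac, all in 1 cell, and none in VD-Mac, so no fold is given, and 579 CPM in the graft. The macrophages of the graft thus carried Mmp13 and cultured cells hardly did, in either treatment.

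**Figure D4:**
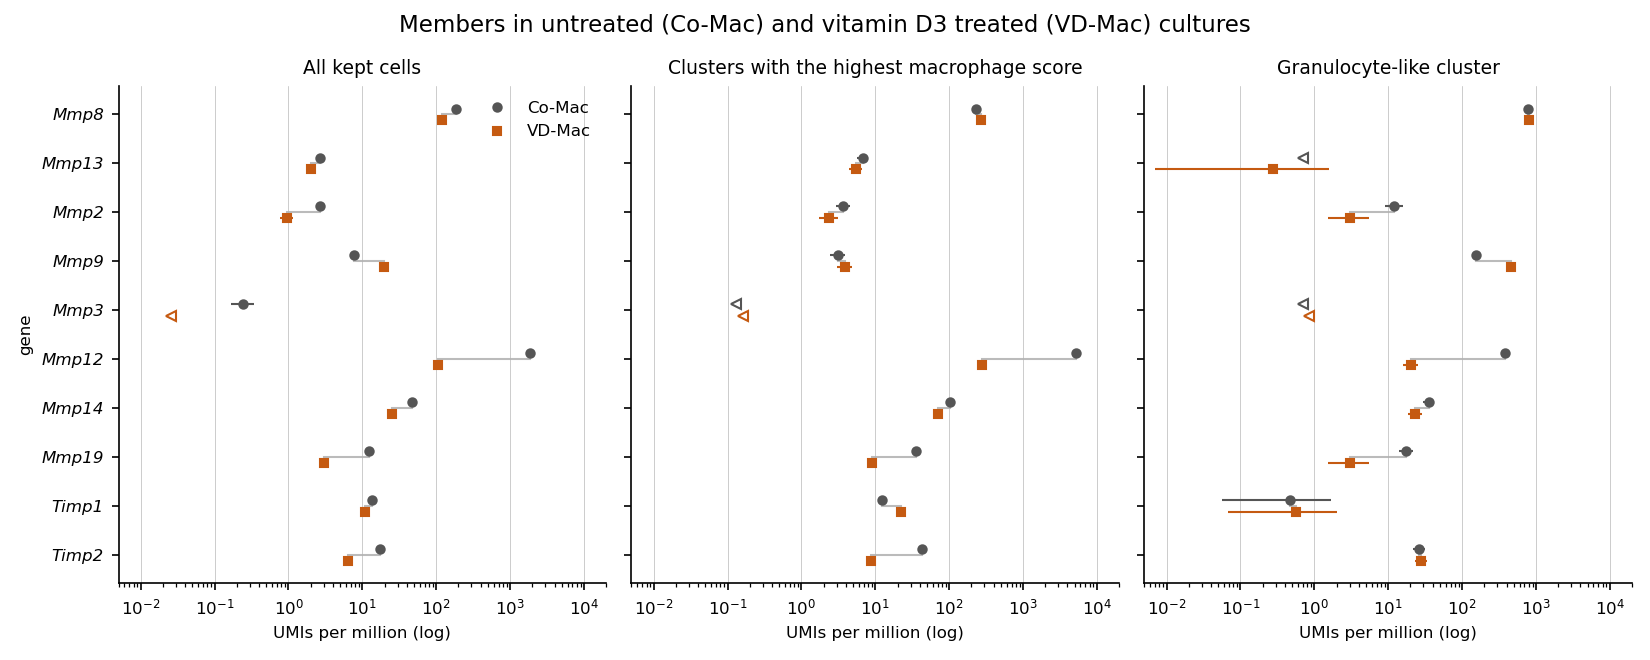
Level (CPM, log axis) of the 10 members in Co-Mac (circles) and VD-Mac (squares), over all kept cells, in the clusters with the highest macrophage score and in the granulocyte-like cluster; bars are exact Poisson 95% intervals and open triangles mark 0 UMIs, drawn at 3 counts. Mmp12 is lower in VD-Mac over all kept cells and in the clusters with the highest macrophage score. In the granulocyte-like cluster its VD-Mac level is not read as expression. Mmp9 is higher in VD-Mac over all kept cells and in the granulocyte-like cluster.

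Although both cultures are labelled macrophages, their marker genes show a mixture, so the members were compared within cell classes as well. The cultures were clustered together, and apart from the granulocyte-like cluster the larger clusters came mostly from 1 culture. The clusters with the highest macrophage score held 1036 Co-Mac and 1128 VD-Mac cells. In Co-Mac this is mainly cluster 7 (1034 cells, led by Mmp12, Rnf128 and Fn1), and in VD-Mac mainly cluster 6 (1125 cells, led by Ccl4, Gdf15 and Ms4a7), which did not meet the rule for a name. In these 2 clusters Csf1r, a macrophage marker, was at 307 and 288 CPM, C1qb at 761 and 1072 CPM and Trem2 at 278 and 794 CPM. DC-like cells were 2711 and 3431, granulocyte-like cells 888 and 1019.

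Within the macrophage-score clusters Mmp12 was at 5155 CPM in Co-Mac and 277 in VD-Mac (log2 -4.22, -4.26 to -4.18). Mmp19 was at 35.8 and 8.97 CPM (3.99-fold lower) and Timp2 at 42.5 and 8.75 CPM (log2 -2.28). These 3 of the 6 members with 10 CPM were lower by 2-fold or more, against 6.24% of all genes. None of the 6 was higher, but no all-gene share stands beside that count, so nothing is drawn from it. The others were Mmp14 at 102 and 71.4 CPM, Mmp8 at 235 and 271 CPM and Timp1 at 12.4 and 22.0 CPM. The median of the 6 was -1.26 and that of all genes with 10 CPM -0.05. When each culture was clustered on its own, the clusters held 1981 and 1166 cells, Mmp12 was at a log2 ratio of -3.00, Timp2 at -1.42 and Mmp19 at -0.93, short of 2-fold, and Mmp13 at 1.85. With cells of higher doublet score removed Mmp12 was at -3.58, and with genes centred within each culture, an alternative chosen after the first clusters were seen, at -3.52.

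Mmp12 was thus lower between the macrophage-score clusters and over the whole cultures alike. Most of its UMIs came from 3 clusters in each culture. In Co-Mac 47.9% of its UMIs came from cluster 7, 42.3% from the cycling cluster 3 (1578 cells, led by Ms4a3, Ccr2 and Cdh1) and 8.32% from cluster 11. In VD-Mac 42.2% came from cluster 6, 33.0% from cluster 9 (355 cells, led by Gpnmb, Sdc1 and Scd1) and 19.5% from the cycling cluster 5. Clusters 3 and 5 scored highest for neutrophil precursors but did not meet the rule for a name, and most cells of each come from 1 culture. In these cycling clusters, 1655 Co-Mac and 1086 VD-Mac cells, Mmp12 was at 1976 and 87.2 CPM (log2 -4.50), Mmp19 at 11.4 and 2.72 CPM (-2.06) and Timp2 at 15.7 and 6.20 CPM (-1.34). There, too, 3 of 6 members were lower by 2-fold or more, against 4.69% of genes, with Mmp8 at 265 and 133 CPM (-0.99) just short. The median of the 6 was -1.16, and that of all genes with 10 CPM -0.12.

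In DC-like cells the members were nearly silent. Only Mmp12 reached 10 CPM, at 34.6 in Co-Mac and 5.78 in VD-Mac, which makes 1 of 1 lower by the rule, against 2.42% of genes. The barcodes with under 300 genes held 221 CPM of Mmp12 in Co-Mac and 22.5 in VD-Mac, above these DC-like levels, so no fold is given and nothing is drawn from that count.

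Granulocyte-like cells held most of the Mmp9 of the cultures, and there it was higher in VD-Mac. Its level was 154 CPM (143 to 166) in Co-Mac and 455 (433 to 477) in VD-Mac, 2.95-fold higher in VD-Mac (log2 1.56, 1.43 to 1.69). The cluster held 66.0% of the Mmp9 UMIs of Co-Mac and 72.2% of those of VD-Mac. A small unnamed cluster led by Ngp, Stfa2 and Ltf had 197 CPM of Mmp9 in 38 Co-Mac cells and 385 in 93 VD-Mac cells. This cluster scored highest for granulocytes (3.52) and next for neutrophil precursors (2.71), whose markers include Ngp and Ltf. A UMI of Mmp9 was found in 19.4% of thinned granulocyte-like cells of Co-Mac and 48.2% of those of VD-Mac, and in none of 2619 (upper limit 0.141%, for detection at the thinned depth only) and 0.0911% of 3293 thinned cells of the main DC-like clusters. Without thinning they were 32.4%, 61.4%, 0.572% and 0.636%, and the cells of these 4 groups had medians of 2805, 2665, 14491 and 13702 UMIs. Thinning left out 268, 299, 2 and 8 of them. Mmp9 was 1 of 7 members with 10 CPM that were higher by 2-fold or more, against 1.61% of genes.

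The neutrophil collagenase did not move with it. Mmp8 was at 779 CPM in granulocyte-like cells of Co-Mac and 799 in those of VD-Mac (log2 0.04, -0.03 to 0.11), so a 2-fold difference lies outside the counting interval, and Timp2 was at 26.3 and 27.9 CPM. Mmp12 was at 385 and 20.1 CPM, Mmp19 at 17.6 and 3.07 CPM (-2.52) and Mmp2, with 52 and 11 UMIs, was 3.91-fold lower (log2 -1.97, -3.06 to -1.01). These 3 of 7 were lower by 2-fold or more, against 2.36% of genes. Mmp12 is among the 3 by the rule, but barcodes with under 300 genes held 221 and 22.5 CPM of it, so its VD-Mac level is not read as expression and its fold is not given. Mmp14 was at 35.3 and 23.2 CPM. The median of the 7 was -0.61 and that of all genes with 10 CPM 0.16.

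Most Mmp8 of the untreated culture lay elsewhere, 55.7% in the cycling cluster 3 and 13.9% in the granulocyte-like cluster. In VD-Mac 36.3% lay in cluster 6, 26.2% in the cycling cluster 5 and 20.7% in the granulocyte-like cluster. In culture, then, Mmp8 was spread over more classes than Mmp9. In the thinned granulocyte-like cells (268 Co-Mac and 299 VD-Mac cells left out) Mmp9 was in 20.8% of Mmp8-positive and 17.6% of Mmp8-negative cells of Co-Mac, and in 49.3% and 46.8% in VD-Mac. The intervals overlap in both, and unthinned the shares were 35.0% and 29.4% in Co-Mac and 62.1% and 60.5% in VD-Mac. In the small unnamed VD-Mac cluster led by Ngp the thinned shares were 48.1% and 26.3%, also with overlapping intervals, and 70.0% and 21.7% unthinned.

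The genes around the members were taken from 9 lists. Of the 80 listed genes in the files 31 had 10 CPM in 1 culture, and 4 of them were higher and 5 lower by 2-fold or more in VD-Mac. Over all genes 2.16% were higher and 4.63% lower, which are also the shares to set beside the counts of each list below. Of the 4 higher genes 2 are the treatment check. Cyp24a1, the vitamin D-degrading enzyme and a classic target of the vitamin D receptor, went from 1 UMI to 36662 (log2 15.35, 12.87 to 20.65), and Vdr, the receptor, from 51.1 to 135 CPM (log2 1.40).

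In the plasminogen activation list, 1 of 1 gene with 10 CPM was lower: Plaur, the urokinase receptor, at 122 and 33.5 CPM (log2 -1.86). Of the partners, processing and clearance genes 1 of 6 was lower, Cd44, a hyaluronan receptor that can dock Mmp9 and Mmp14, at 217 and 73.0 CPM (log2 -1.57), and the list's median was -0.44. Among ADAM and ADAMTS proteases 2 of 6 were lower, Adam8 at 144 and 57.1 CPM (log2 -1.33) and Adam15 at 58.0 and 25.7 CPM (log2 -1.18), and 1 was higher, Adam19 at 16.5 and 41.2 CPM (log2 1.32), with a median of -0.54. Of the matrix substrates only fibronectin, Fn1, had 10 CPM, and it was 9.43-fold lower, at 388 and 41.1 CPM (log2 -3.24).

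Of the inducing cytokines 1 of 5 was higher, Il1a at 10.8 and 25.5 CPM (log2 1.24), with a list median of 0.57. None of the 9 AP-1, Ets and Runx factors with 10 CPM passed 2-fold in either direction, and their median was 0.47. Of 15 other MMPs 14 were in the files and 1 had 10 CPM, Mmp23, and it did not pass 2-fold (log2 -0.82), and none of the other MMP inhibitors reached 10 CPM. The all-gene median beside each of these medians is -0.10.

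In the graft, the most abundant genes of the lists also differed by cell class. On the fibroblast side were Mmp23 (97.7% of its UMIs in fibroblast-like cells), Adamts1 (88.7%), Reck (81.4%) and the substrates Col3a1 (98.8%) and Col1a1 (99.1%). Timp3, which binds to the matrix, was highest in endothelial-like cells at 990 CPM (989.8), and fibroblast-like cells held 51.4% of its UMIs. The granulocyte-like cells had the highest levels of Adam8 (1026 CPM), Plaur (1460.2 CPM), Cd44 (2499.9 CPM), Junb (3433 CPM) and Il1b (5811 CPM), a cytokine known to induce MMPs. By UMIs, macrophage-like cells held the largest part of Adam8 (65.3%), Junb (48.2%), Plaur (47.2%) and Cd44 (42.4%), the last 3 near their 43.2% of all UMIs. Cd63, which binds Timp1, was highest in fibroblast-like cells (1618 CPM), Tgfb1 in T cell-like cells (476 CPM), Fos in endothelial-like cells (1808 CPM), Mmp25 in neutrophil precursor-like cells (46.4 CPM) and Vdr in the unnamed cluster of 127 cells (207 CPM). Cyp24a1 had 0 UMIs in the graft, with an upper limit of 0.163 CPM.

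The genes most like 5 of the members were ranked by the Pearson correlation of their levels over 11 graft clusters, among 6164 genes. The clusters share 1 library and differ in depth, and single cells set some of their Mmp12 and Mmp13 levels, so these are descriptions. No ranking without those cells was made. For Mmp2 they were Vegfd, Mfap5, Fbln1, Sfrp1 and Chl1 (correlations 0.993 to 0.989), each highest in fibroblast-like cells. For Timp1 they included Ifi211, Axl, Daglb and Dapk1 (0.970 to 0.950). For Mmp12 they were Hvcn1, Slamf7, Ctss, Msr1 and Fabp5 (0.954 to 0.917), among them the elastin-degrading protease cathepsin S, Ctss. Slamf7 was highest in the unnamed cluster of 127 cells, where 1 cell held most Mmp12 UMIs. For Mmp9 they were Treml2, Fpr1, 2010005H15Rik, Fam111a and Ccpg1 (0.912 to 0.895), and for Mmp13, with lower values, they included Tmem9b, Tmem26, Mcoln2 and Metrnl (0.893 to 0.778).

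By position, 4 of the members lie in 1 MMP gene cluster. The methods of the paper name a human build for alignment, while the gene IDs are those of mouse. The counts are therefore on mouse genes, and which mouse build was used for counting is unsettled. On the mouse build GRCm38 (annotation GENCODE vM21, which holds 31011 of the 31053 gene IDs) chromosome 9 carries 9 of the listed MMP genes between 7272514 and 7699585, in the order Mmp13, Mmp12, Mmp1b, Mmp3, Mmp10, Mmp8, Mmp27, Mmp20 and Mmp7. Their UMIs in the graft were 13160, 40626, 0, 13117, 137, 1410, 130, 1 and 0. Genes of the cluster thus differed in level and in cell class, since the macrophage genes Mmp13 and Mmp12 share it with the fibroblast gene Mmp3 and the neutrophil gene Mmp8.

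Mmp13 (ENSMUSG00000050578) spans 7272514 to 7283331, Mmp12 (ENSMUSG00000049723) 7344381 to 7369499, Mmp3 (ENSMUSG00000043613) 7445822 to 7455975 and Mmp8 (ENSMUSG00000005800) 7558456 to 7568485, each on the plus strand of chromosome 9. The others are scattered. Mmp2 (ENSMUSG00000031740) lies on chromosome 8 at 92827291 to 92853420, Mmp9 (ENSMUSG00000017737) on chromosome 2 at 164940780 to 164955850 and Mmp14 (ENSMUSG00000000957) on chromosome 14 at 54431612 to 54445364. Mmp19 (ENSMUSG00000025355) lies on chromosome 10 at 128790910 to 128800824, Timp1 (ENSMUSG00000001131) on chromosome X at 20870166 to 20874735, and Timp2 (ENSMUSG00000017466) on the minus strand of chromosome 11 at 118301069 to 118355740.

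Of the chromosome 9 members, the promoter windows that hold the AP-1 letters given below are printed. They are shown because Mmp12 and Mmp13, led by macrophage-like cells, lie in the same gene cluster as Mmp3, led by fibroblast-like cells. The window of Mmp8 and the first of Mmp12 held no match and are not printed. Promoter windows of 300 bases from RefSeq (GRCm38.p6) were in the reference table for 7 of the 10 members, with 8 windows since Mmp12 has 2, and were missing for Mmp2, Mmp9 and Mmp19. The AP-1 letters TGANTCA, searched on both strands, were in 3 of the 8 windows and in 7.81% of all 32851 windows. The direct repeat of the vitamin D receptor type, AGNTCA followed after any 3 bases by AGNTCA, was also searched on both strands. It was in 0 of the 8 and in 0.0700% of all. At so low a share 8 windows could hardly hold a match, and other spellings of the repeat were not searched, so nothing is drawn from this. The windows with TGANTCA are those of Mmp13 (chr9:7272264-7272563), where it begins 35 bases before the transcript start of the window, the second of Mmp12 (chr9:7347124-7347423), 44 bases before, and that of Mmp3 (chr9:7445572-7445871), 46 bases before. They are printed 5′ to 3′ on the plus strand, with the match in capitals.
Mmp13: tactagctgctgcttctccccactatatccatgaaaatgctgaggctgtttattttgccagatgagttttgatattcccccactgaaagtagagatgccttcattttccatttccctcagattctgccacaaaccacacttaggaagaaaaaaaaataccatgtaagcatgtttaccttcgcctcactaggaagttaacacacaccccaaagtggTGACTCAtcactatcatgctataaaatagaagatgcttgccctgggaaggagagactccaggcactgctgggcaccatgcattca
Mmp12, second window: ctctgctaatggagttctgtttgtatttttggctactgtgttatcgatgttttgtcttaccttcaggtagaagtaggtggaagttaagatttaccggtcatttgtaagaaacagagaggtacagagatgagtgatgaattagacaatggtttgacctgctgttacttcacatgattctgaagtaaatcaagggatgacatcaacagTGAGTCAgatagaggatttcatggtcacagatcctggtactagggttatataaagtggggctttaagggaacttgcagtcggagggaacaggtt
Mmp3: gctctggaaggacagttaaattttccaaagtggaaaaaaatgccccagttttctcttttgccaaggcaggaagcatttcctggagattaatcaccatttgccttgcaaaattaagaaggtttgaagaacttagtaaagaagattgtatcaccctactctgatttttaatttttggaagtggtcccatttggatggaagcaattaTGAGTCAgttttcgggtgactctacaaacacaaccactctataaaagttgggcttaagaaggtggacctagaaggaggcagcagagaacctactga
A match describes letters in these windows and no more, and its use by a factor was not measured.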

How the data were processed

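The authors deposited 3 matrices of UMI counts per gene and cell, made with Cell Ranger and then analysed by them with Seurat 3.1.1. From these counts, CPM, shares and exact 95% intervals were computed with Python 3.11.15, numpy 2.4.6, pandas 2.3.3 and scipy 1.17.1. Clusters came from Seurat 5.3.0 in R 4.3.3 (log normalization to 10000, 2000 variable genes without the members and listed genes, 15 principal components, 15 neighbors, resolution 0.5) and were named by marker genes. A cluster took the cell type with the highest mean log2 ratio of its markers over the other cells (0.5 or more, 3 markers with UMIs or more). It stayed unnamed if its 10 leading genes held more markers of another type. It also stayed unnamed if its median depth was far below that of its library and those 10 genes held none of its type's markers. Markers of red blood cells were not used for naming. A difference is called from 2-fold upward if the higher group reaches 10 CPM. The statistical scripts were tested on simulated data.

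Listed genes are named if past that threshold between the cultures, at most 12 by size of ratio, or if among the 2 most abundant of their list in the graft. For 5 members the 5 most correlated genes are named. A few genes that meet these rules are not reported here. The members and lists were chosen with earlier results of these data known.

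Alternatives varied cell filters, scaling, thresholds, clustering, thinning depth and doublets. The Scrublet tool (scanpy 1.11.5) called 1, 0 and 8 doublets in Co-Mac, VD-Mac and hSTSG, under 0.5% of cells, so automatic calling did not work, and as an alternative the 421, 623 and 37 cells with the highest scores were removed. Leaving out the cell with the most UMIs of a gene, centring genes within each culture, and resolution 0.8 for the Trem2 and Cd163 classes were chosen after seeing the data. Protein motifs were not searched, since no protein sequences were at hand.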

Additional observations from a re-analysis of the deposited data

Results flagged for a closer look

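The graft library also holds counts of hashtag antibodies, which are outside the gene counts used above. There were 1195935 hashtag UMIs in hSTSG and 0 in Co-Mac and VD-Mac, and this signal in data not used in the comparisons is what singled it out. The labels give no map from hashtags to the 5 mice, so no value was split by mouse.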

How the results depend on the processing

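Each culture and the graft is 1 library, so the intervals leave out variation between mice and cultures. No paired analysis was possible because the results come from no test and each group has 1 library. Of 81 log2 ratios of VD-Mac over Co-Mac under other settings 53 stayed within the interval of the reported value, and 76 kept their sign. The ratio of Mmp12 ranged from -4.38 to -3.43, of Mmp19 from -2.25 to -1.90, of Mmp9 from 1.21 to 2.32 and of Timp2 from -1.40 to -0.27. Over all kept cells, the count of members lower in VD-Mac was 3, and it was 5 at 1.5-fold and 5 with no minimum CPM. The count higher was 1, and it was 2 with VD-Mac class levels weighted with the Co-Mac class shares. In the macrophage-score clusters the count higher was 0, and it was 1 when each culture was clustered on its own and 1 at 1.5-fold. The all-gene shares given above belong to the main setting, 2-fold with 10 CPM. No such share stands beside these counts under other settings, so nothing is drawn from them. The count of pairs found together more often was 4, and it was 7 when cells were not thinned. No share over other gene pairs stands beside this count either. The looser thresholds and the greater depth admit more by construction, and for the other settings the cause was not tested. In the graft, 9 of 10 members kept their leading class under all 8 other settings, and Mmp14 under 6. Of 48 co-detection differences 43 kept their sign, and of 20 log2 ratios of Trem2 over Cd163 cells 19 did. Low depth limits granulocyte-like cells, with a median of 2261.5 UMIs in the graft. The planned protein motif search was not run.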
